A study of Mus musculus with 18 samples.

Results

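The counts of 8 genes of the lysosome were followed in 4T1 cells with and without the small nucleolar RNA Snord67. The genes were picked by name from the gene column of the count table and are Ctsb, Ctsl, Ctsz, Ctsd, Lgmn, Psap, Lamp1 and Cd63. They are 8 of 19749 genes in the table and hold 4527 of its 1825851 genomic positions. 4T1 is a mouse mammary carcinoma line, here carrying lentiviral mCherry and Renilla luciferase (4T1-mCh/rLuc) in all samples. The wild-type cells (WT) were compared with Snord67KO-1 and Snord67KO-2, a pair of CRISPR clones each grown from a single cell, so that a clone and its genotype cannot be told apart. Each of the 3 lines, called genotypes below, has 3 biologic replicates of poly(A) RNA, and the 9 oxidized libraries are used here, while 9 control samples were not analysed here. Snord67 is a box C/D small nucleolar RNA that guides 2′-O-methylation of the spliceosomal U6 RNA.

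The assay was ribose oxidation sequencing (RibOxi-seq), in which RNA is fragmented, oxidized and ligated at its surviving 3′ ends, and the read 3′ ends are counted at each genomic position. A gene total is the sum of these ends over the positions of the gene, given as counts or as counts per 1000000 counts of the library (CPM). More RNA of a gene and better survival of its ends cannot be told apart in such a total, and in bulk RNA neither can more cells with the transcript and more transcript per cell. The table also marks some positions as mispriming, a term that the sources do not define, so every gene total is given with these positions and without them. The table gives no strand, so reads of genes that overlap on opposite strands cannot be told apart. CPM without marked positions were divided by the unmarked counts of the library.

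Lysosomes break down material that reaches them by endocytosis and autophagy. Their proteases are made as inactive precursors, sorted to the lysosome and activated there at acid pH. Ctsb, Ctsl and Ctsz encode the cysteine proteases cathepsin B, L and Z, Ctsd encodes the aspartic protease cathepsin D, and Lgmn encodes legumain, which cuts after asparagine and processes several cathepsins. Psap encodes prosaposin, the precursor of the saposins that help hydrolases to degrade sphingolipids. Lamp1 encodes a heavily glycosylated protein that lines the lysosomal membrane, and Cd63 encodes a tetraspanin of late endosomes, lysosomes and exosomes. Cathepsins are also secreted by tumor cells and are known for degrading extracellular matrix.

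A few single positions held a large part of the counts of Ctsl, Lgmn, Ctsd and Psap. They are shown because these gene totals turn on them, and the strongest positions of Cd63 and Lamp1 are shown beside them for comparison. Each sequence is the sense strand of the exon (GENCODE M21 transcripts, GRCm38), 5′ to 3′, with 12 bases up to and including the counted position and the 12 bases after it, of which the first 6 are in capitals.
Ctsl, chromosome 13, position 64369040, minus strand, coding sequence in exon 2, marked: acacacagaagaCTGTATggcacg
Ctsl, chromosome 13, position 64365304, minus strand, coding sequence in exon 7, marked: ctatgaacccaaCTGTAGcagcaa
Lgmn, chromosome 12, position 102394869, minus strand, coding sequence in exon 13, marked: gctggccaatctCTGTGAggcacc
Psap, chromosome 10, position 60293402, plus strand, coding sequence in exon 4, marked: catgactccagcCTGTCGgcctcg
Cd63, chromosome 10, position 128912254, plus strand, coding sequence in exon 6, marked: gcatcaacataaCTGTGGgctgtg
Ctsd, chromosome 7, position 142385546, minus strand, coding sequence in exon 2, not marked: gaagacctgatcCTCAAAggcccc
Lamp1, chromosome 8, position 13173854, plus strand, coding sequence in exon 8, not marked: acaagtgcaacaCTGAGGaacaca

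All 5 marked sequences go on with CTG after the counted position. Over the whole table, among exonic positions with at least 10 counts outside the rRNA gene Rn45s, CTG followed 91.2% of 2542 marked positions and 20.1% of 5396 unmarked ones, and CTGTAG followed 25.6% and 0.315%. The 3′ linker listed in the paper begins with the same CTGTAG. Marked counts may thus come from priming within a transcript and not from ligated ends, which was not tested. The unmarked Ctsd position is followed by CTCAAA, while the unmarked Lamp1 position is followed by CTG like the marked ones. Position 64369040 held 2371 of the counts of Ctsl over the 9 libraries, or 49.6%. Position 102394869 held 288 counts, which is 69.9% of Lgmn. The Ctsd position held 183 counts (39.2%), the Psap position 130 (15.2%), the Cd63 position 46 (7.64%) and the Lamp1 position 35 (3.61%). The strongest positions of Ctsb and Ctsz, not shown, had 22 counts (3.32%) and 4 counts (2.11%) at 1 place.

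Library totals ranged from 212463 to 737219 counts and were lowest in Snord67KO-2. A count of 0 still allows 3 counts, which is 4.07 to 4.80 CPM in the WT libraries. This limit is 4.37 to 6.10 CPM in Snord67KO-1 and 7.09 to 14.1 CPM in Snord67KO-2, so a 0 there can hide a value above WT. These limits cover counting error only. Marked positions held 2.57% to 17.8% of the counts of a WT library, 1.43% to 7.22% in Snord67KO-1 and 1.38% to 3.46% in Snord67KO-2, with the highest share in WT replicate 2. The interval of Snord67 itself had 0 counts in all 3 WT libraries, 1 count in Snord67KO-1 replicate 1 and 0 in the others. Its loss thus could not be checked in these poly(A) libraries, a type in which, the paper states, small nucleolar RNAs are mostly missed. The paper reports the loss in both clones by RT-qPCR and by DNA sequencing of the deletions. Chi-square over its degrees of freedom was 2.91 to 13.1 for replicate pairs of WT and 2.11 to 3.09 for Snord67KO-1. These replicates thus differed by more than counting error, which alone gives about 1. It was 1.17 to 1.90 for Snord67KO-2, where the excess was small and does not plainly show separate libraries. The same spread gives a smaller ratio at lower depth, and Snord67KO-2 had the fewest counts, so the ratios of the genotypes cannot be compared directly.

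The cathepsin genes Ctsl and Ctsb were higher for the average of both knockout clones, and Ctsl changed most of the 8 genes once marked positions were left out. All 8 genes passed the filter of at least 10 counts in at least 3 libraries in both totals. With all positions, 4 of the 8 passed an adjusted p of 0.05 for the average of both clones against WT (edgeR's quasi-likelihood test), where 12.1% of 6295 tested genes did. Ctsb, Ctsl and Ctsz were higher and Lgmn was lower. Without marked positions 3 of the 8 passed, against 12% of 5752 tested genes, and these were Ctsb, Ctsl and Psap, all higher. The median log2 fold change of the 8 genes was 0.29 with all positions and 0.50 without marked ones, beside -0.05 and -0.03 over all genes tested. The 8 genes were chosen with earlier results of these data known. The shares and medians here and below thus do not test the 8 as a set against all genes.

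For Snord67KO-1 against WT, 3 of the 8 passed with all positions (Ctsb and Ctsl higher, Lgmn lower), where the share over all genes was 18.3%, and 3 passed without marked positions (Ctsb, Ctsl and Psap higher), where it was 20.3%. For Snord67KO-2 against WT, 2 of the 8 passed with all positions (Ctsl higher, Lgmn lower) against 3.18% of all genes, and 1 passed without marked positions (Ctsl, higher) against 3.98%. Both comparisons use the same WT libraries. In CPM without marked positions, the 6 knockout libraries lay above the 3 WT libraries for Ctsb, Ctsl and Ctsz, 3 of the 8 genes. Of all genes tested, 9.16% lay apart, counting higher and lower together.

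**Figure D1:**
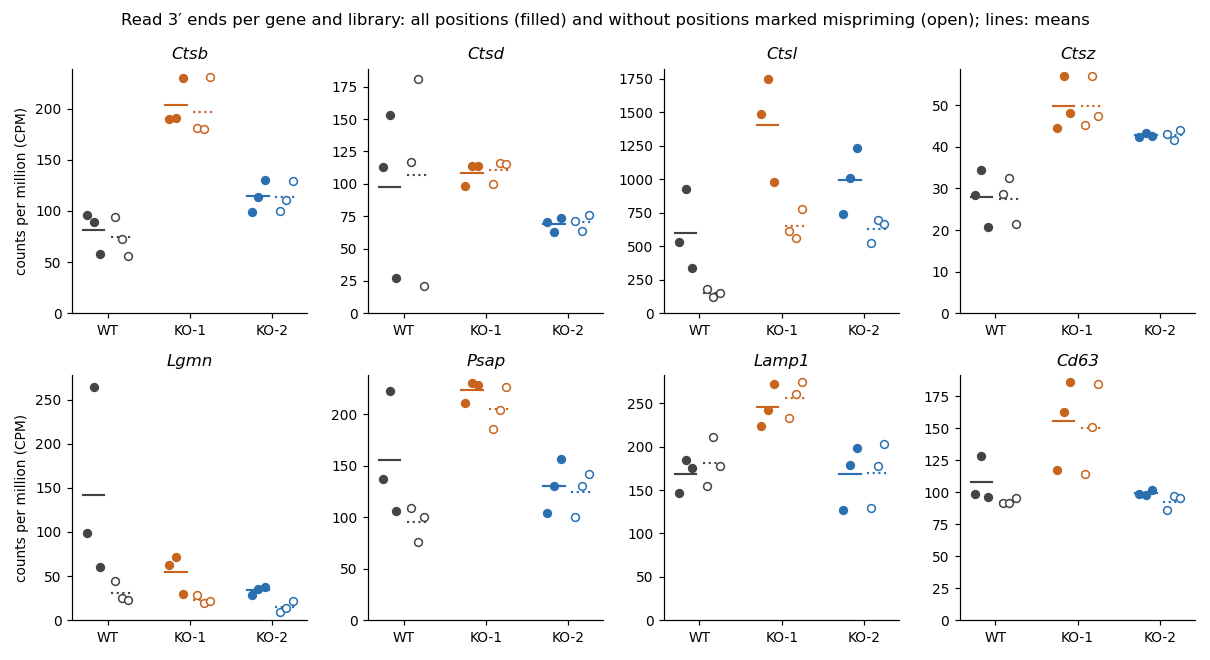
CPM of the 8 genes (vertical axis, linear from 0) in the 3 libraries of each genotype, with all positions (filled points) and without positions marked mispriming (open points). Lines are means. The open points of Ctsl lie between 120 and 184 CPM in WT and between 525 and 776 CPM in the knockout clones, and the filled WT points of Lgmn and Psap spread up to 265 and 222 CPM in replicate 2.

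Ctsl (ENSMUSG00000021477.9, minus strand of chr13:64359337-64370890 in GRCm38) encodes cathepsin L, an endopeptidase of the lysosome. Its total was 534, 923 and 338 CPM in the WT libraries, 1484, 1744 and 978 CPM in Snord67KO-1, and 744, 1006 and 1236 CPM in Snord67KO-2. Snord67KO-1 lay above WT in every library, while the lowest Snord67KO-2 library lay below the highest WT library. The fold change was 2.24 in Snord67KO-1 (log2 1.16 ± 0.25, SE, adjusted p = 0.00459) and 2.05 in Snord67KO-2 (log2 1.04 ± 0.25, SE, adjusted p = 0.0322, edgeR).

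Without marked positions, Ctsl had 184, 120 and 154 CPM in WT, 617, 561 and 776 CPM in Snord67KO-1, and 525, 695 and 666 CPM in Snord67KO-2. The groups did not overlap, and every knockout library lay far above every WT library. These values rest on 129, 63 and 94 counts in WT, 395, 256 and 525 in Snord67KO-1 and 110, 251 and 272 in Snord67KO-2. The fold change was 3.64 in Snord67KO-1 (log2 1.86 ± 0.21, SE, adjusted p = 7.56e-06) and 4.44 in Snord67KO-2 (log2 2.15 ± 0.22, SE, adjusted p = 1.88e-06, edgeR). With each library left out in turn, the unmarked change of Snord67KO-2 stayed between 1.91 and 2.29 on the log2 scale and past the threshold in all 9 fits. With all positions the call of Snord67KO-2 held in 3 of 9 such fits, with adjusted p from 0.00224 to 0.152, and was lost without WT replicate 1 or 3, without Snord67KO-1 replicate 1, and without any of the Snord67KO-2 libraries. With library totals in place of TMM factors it was lost too (log2 0.74, adjusted p = 0.257, edgeR).

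The strongest Ctsl position alone took 62.2%, 71.9% and 51.2% of the gene's counts in WT, 54.4%, 62.6% and 19.0% in Snord67KO-1, and 28.5%, 30.2% and 43.6% in Snord67KO-2. Its CPM were 332, 664 and 173 in WT, 807, 1092 and 186 in Snord67KO-1 and 212, 304 and 539 in Snord67KO-2, so that all 3 genotypes overlapped at this position. The rest of the gene had 202, 260 and 165 CPM in WT, and 532 to 792 CPM over the 6 knockout libraries, with no overlap.

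**Figure D2:**
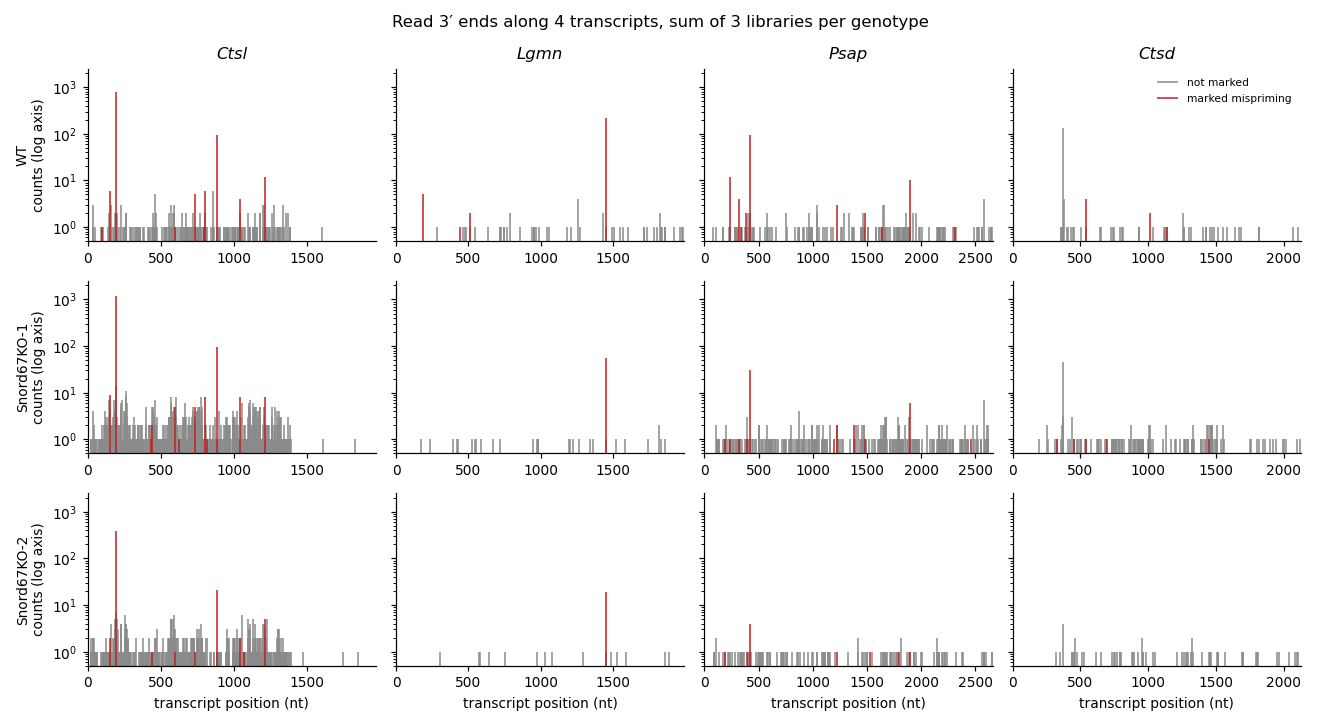
Read 3′ ends (log axis, sum of 3 libraries per genotype) along the transcripts of Ctsl, Lgmn, Psap and Ctsd, with transcript position in nucleotides from the 5′ end. Red lines are marked positions and grey lines the others. Ctsl shows the tall marked line at position 196 in all genotypes and denser grey lines in both clones, Lgmn a marked line at position 1448, Psap one at position 418, and Ctsd an unmarked line at position 375 that is tallest in WT.

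Outside marked positions, the Ctsl counts were spread over the transcript Ctsl-201 in like proportions in each genotype. With the 1971 nucleotides cut into 3 equal stretches, the 5′ stretch held 42.2%, 48.8% and 49.3% of the exonic unmarked counts (WT, Snord67KO-1, Snord67KO-2). The middle stretch held 52.1%, 47.5% and 46.1%, and the 3′ stretch held 3.70% to 5.67%. Most unmarked counts of Ctsl lay in coding sequence (72.7%), with 24.4% in the 3′ UTR and 0.859% in introns. Over all 8 genes, 69.4% of the unmarked counts lay in coding sequence, 26.7% in the 3′ UTR, 1.73% in the 5′ UTR and 1.98% in introns.

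Ctsb (ENSMUSG00000021939.8, plus strand of chr14:63122462-63145923), the gene of cathepsin B, had 96.3, 89.2 and 57.6 CPM in WT, 190, 191 and 230 CPM in Snord67KO-1, and 98.8, 114 and 130 CPM in Snord67KO-2. Every knockout library lay above every WT library, though the lowest Snord67KO-2 library only just did so. Without marked positions the WT libraries had 94.3, 72.4 and 55.8 CPM, and the knockout libraries 100 to 230 CPM. Ctsb was 2.31-fold higher in Snord67KO-1 (log2 1.21 ± 0.22, SE, adjusted p = 0.00125) and 1.68-fold in Snord67KO-2 (log2 0.74 ± 0.23, SE, adjusted p = 0.0882, edgeR), where the threshold was missed. With the strongest position of every gene left out Snord67KO-2 passed (log2 0.67, adjusted p = 0.0434, edgeR). Leaving out marked positions gave 2.31-fold (adjusted p = 0.00035) and 1.68-fold (adjusted p = 0.0663, edgeR). The call of the average of both clones and that of Snord67KO-1 held in each of the 9 fits with a library left out, in both totals, and Snord67KO-2 passed without marked positions once WT replicate 1 was left out too (log2 0.96, adjusted p = 0.0342).

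Ctsz (ENSMUSG00000016256.10, minus strand of chr2:174427493-174439039), which encodes the carboxypeptidase cathepsin Z, had the fewest counts, 190 over the 9 libraries. It had 28.5, 34.4 and 20.8 CPM in WT, 44.5, 56.9 and 48.1 CPM in Snord67KO-1, and 42.4, 43.4 and 42.5 CPM in Snord67KO-2. The groups did not overlap, and marked positions changed little, with 21.3 to 32.4 CPM in WT and 41.5 to 57.0 CPM in the knockouts without them. The average of both clones was 1.72-fold higher (log2 0.78 ± 0.24, SE, adjusted p = 0.041, edgeR). This call was close to the threshold and was lost without marked positions (1.64-fold, adjusted p = 0.0526) and in 8 of 9 fits with a library left out (adjusted p up to 0.103, all but that without Snord67KO-1 replicate 1), while each clone alone missed the threshold in both totals (adjusted p = 0.0679 to 0.15, edgeR).

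Ctsd (ENSMUSG00000007891.16, minus strand of chr7:142375911-142388038), the gene of the aspartic protease cathepsin D, had 113, 153 and 27.2 CPM in WT, 98.0, 114 and 114 CPM in Snord67KO-1, and 70.6, 62.4 and 73.2 CPM in Snord67KO-2. The WT libraries enclosed all knockout libraries, and no comparison with WT passed, with log2 fold changes of 0.10 ± 0.32 (SE, adjusted p = 0.876) and -0.20 ± 0.36 (SE, adjusted p = 0.813, edgeR). Only 2.78% of the Ctsd counts were marked, so leaving out marked positions did not alter this, although without WT replicate 3, its lowest library, the average of both clones then came to -0.66 (adjusted p = 0.032, edgeR). The spread of WT came from the unmarked position shown above, which had 48, 86 and 0 counts in WT, 20, 22 and 3 in Snord67KO-1, and 0, 0 and 4 in Snord67KO-2.

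The rest of Ctsd gave 47.5, 18.8 and 27.2 CPM in WT, 68.3, 69.1 and 109 CPM in Snord67KO-1, and 70.6, 62.4 and 63.8 CPM in Snord67KO-2. Here every knockout library lay above every WT library. With the strongest position of every gene left out, Ctsd was higher by 1.14 on the log2 scale in Snord67KO-1 (adjusted p = 0.00163) and by 1.09 in Snord67KO-2 (adjusted p = 0.0252, edgeR). The direction of Ctsd for the average of both clones thus turned from -0.05 to 1.11 (adjusted p = 0.00182, edgeR) with the removal of 1 position.

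Lgmn (ENSMUSG00000021190.14, minus strand of chr12:102394084-102439813), the gene of legumain, went the other way. Its total was 99.0, 265 and 60.8 CPM in WT, 62.3, 71.2 and 29.1 CPM in Snord67KO-1, and 28.2, 35.3 and 37.8 CPM in Snord67KO-2. Snord67KO-2 lay below WT in every library, whereas Snord67KO-1 overlapped it. The total was 2.70-fold lower in Snord67KO-1 (log2 -1.43 ± 0.35, SE, adjusted p = 0.00933) and 3.26-fold lower in Snord67KO-2 (log2 -1.71 ± 0.41, SE, adjusted p = 0.0269, edgeR).

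The calls of lower Lgmn were lost without marked positions, although the values stayed below WT in the mean, and Snord67KO-2 still lay below WT in every library. Those positions held 57.5%, 92.3% and 63.2% of the Lgmn counts in the WT libraries, and the remaining counts were 31, 13 and 14 in WT, 18, 9 and 15 in Snord67KO-1, and 2, 5 and 9 in Snord67KO-2. On these, Lgmn had 44.3, 24.8 and 23.0 CPM in WT, 28.1, 19.7 and 22.2 CPM in Snord67KO-1, and 9.55, 13.8 and 22.0 CPM in Snord67KO-2. The log2 fold change was -0.61 (95% interval -1.30 to 0.08, adjusted p = 0.204) in Snord67KO-1 and -0.84 (-1.69 to 0.01, adjusted p = 0.283, edgeR) in Snord67KO-2. With the strongest position of every gene left out, the average of both clones still passed (log2 -0.88, adjusted p = 0.0337), while neither clone did alone (edgeR). With all positions, leaving out WT replicate 2, which held 169 of the 280 WT counts, gave -1.17 in Snord67KO-2 (adjusted p = 0.0581, edgeR). The call of Snord67KO-2 was also lost without Snord67KO-1 replicate 1 or any of its own libraries (adjusted p up to 0.144), and by library totals alone (adjusted p = 0.106), and that of Snord67KO-1 without its replicate 1 or 3 (adjusted p up to 0.0642).

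Psap (ENSMUSG00000004207.14, plus strand of chr10:60277627-60302597), which encodes the saposin precursor, had 137, 222 and 106 CPM in WT, 211, 230 and 229 CPM in Snord67KO-1, and 104, 130 and 156 CPM in Snord67KO-2. WT replicate 2 overlapped Snord67KO-1, and 71.8% of its Psap counts were marked. Without marked positions the WT libraries had 109, 76.2 and 100 CPM and lay below all Snord67KO-1 libraries, at 186, 204 and 226 CPM, while Snord67KO-2 had 100, 130 and 142 CPM. Psap was then 1.85-fold higher in Snord67KO-1 (log2 0.89 ± 0.21, SE, adjusted p = 0.00552, edgeR), whereas with all positions the fold was 1.36 (adjusted p = 0.146), and it passed once WT replicate 2 was left out (log2 0.59, adjusted p = 0.0403). In Snord67KO-2 the log2 fold change was 0.50 ± 0.23 (SE, adjusted p = 0.251, edgeR) without marked positions. The call of the average of both clones (1.62-fold, adjusted p = 0.0238) held in 6 of 9 fits with a library left out. It was lost without WT replicate 2 and without Snord67KO-2 replicate 2 or 3, with adjusted p up to 0.0895.

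**Figure D3:**
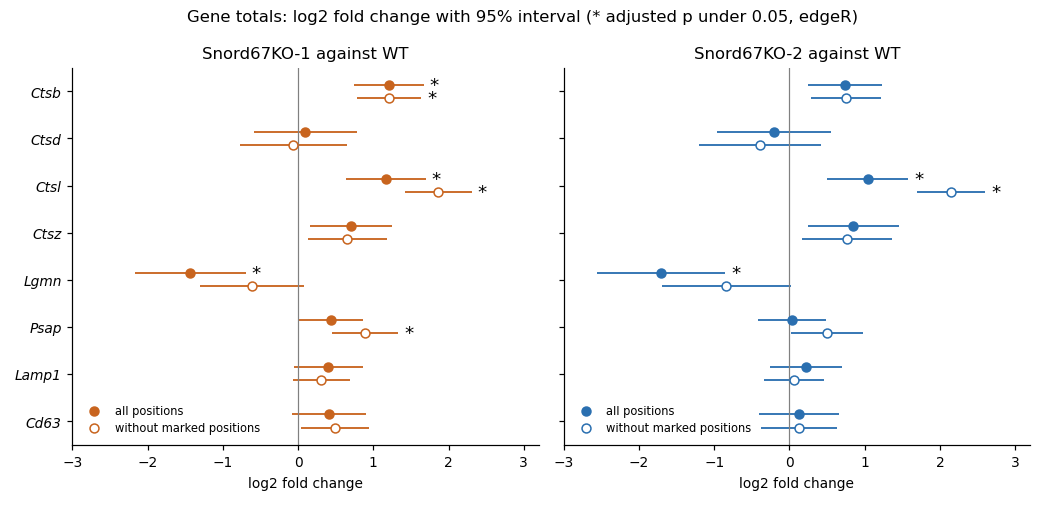
Log2 fold change of the 8 gene totals in Snord67KO-1 (left) and Snord67KO-2 (right) against WT, with 95% intervals, for all positions (filled) and without marked positions (open). Stars mark an adjusted p under 0.05 (edgeR). Ctsl lies farther right without marked positions in both clones (1.86 and 2.15), and Lgmn nearer to 0 (-0.61 and -0.84).

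The 2 membrane proteins did not pass in any comparison with WT. Lamp1 (ENSMUSG00000031447.7, plus strand of chr8:13159161-13175338) had 146, 185 and 176 CPM in WT, 224, 242 and 272 CPM in Snord67KO-1, and 127, 179 and 198 CPM in Snord67KO-2, so that Snord67KO-1 lay above WT and Snord67KO-2 enclosed it. The log2 fold change without marked positions was 0.31 (95% interval -0.07 to 0.69, adjusted p = 0.24) in Snord67KO-1 and 0.06 (-0.34 to 0.46, adjusted p = 0.921, edgeR) in Snord67KO-2. Cd63 (ENSMUSG00000025351.14, plus strand of chr10:128900989-128912822) had 99.0, 128 and 96.0 CPM in WT, 117, 163 and 186 CPM in Snord67KO-1, and 98.8, 97.6 and 102 CPM in Snord67KO-2. Its log2 fold change without marked positions was 0.49 (0.04 to 0.94, adjusted p = 0.119) and 0.13 (-0.38 to 0.63, adjusted p = 0.849, edgeR), and leaving out Snord67KO-1 replicate 1 as well brought the former to 0.73 (adjusted p = 0.0355). GENCODE lists a Cd63 pseudogene, and how reads were shared with it is not given in the sources used here.

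The clones were compared with each other by the test of their difference. None of the 8 genes passed for Snord67KO-2 against Snord67KO-1, with all positions or without marked ones, where 3.99% and 6.38% of all genes did (edgeR). At an unadjusted p of 0.05 the count was 0 with all positions, and without marked positions it was 1 (Ctsb, log2 -0.46 ± 0.21, SE, adjusted p = 0.211), beside 1145 of 6295 and 1187 of 5752 genes. The 95% interval of the difference in unmarked Ctsl was -0.14 to 0.71 on the log2 scale. In CPM without marked positions, 6 of the 8 genes lay lower in every Snord67KO-2 than in every Snord67KO-1 library, the exceptions being Ctsl and Lgmn. Of all genes tested, 31.7% did not overlap between the clones, counting higher and lower together. Against WT, 6 of the 8 genes did not overlap in Snord67KO-1, where 34.2% of all genes did not, and 4 of the 8 in Snord67KO-2, where the share was 20%. These shares also count both directions. CPM use library totals, while the fits use TMM factors, and between the clones the median of all genes was -0.36 by library totals alone and -0.01 with TMM.

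Marked shares were lower in the knockouts in the mean for all 8 genes, but none passed. With 3 against 6 libraries the smallest p that the test can give is 0.0238, which for 1 gene alone would come to 0.19 after adjustment over the 8, so that a single gene could not pass. The share of Ctsl was 70.7% ± 17.2 (SD, n = 3) in WT and 43.9% ± 18.9 (SD, n = 6) in the knockouts, and an exact permutation test (two-sided) gave p = 0.119 and adjusted p = 0.452. For Psap it was 34.7% ± 33.3 (SD, n = 3) and 9.20% ± 7.02 (SD, n = 6), with the same p. For Lgmn it was 71.0% ± 18.7 (SD, n = 3) and 54.7% ± 17.8 (SD, n = 6), with p = 0.262 and adjusted p = 0.452 by the exact permutation test. The marked share of the whole library moved in the same way, with means of 8.50% ± 8.19 for WT, 4.54% ± 2.92 for Snord67KO-1 and 2.30% ± 1.06 for Snord67KO-2 (SD, 3 libraries each), and its part in the gene totals was not tested beyond leaving out the marked positions. Without WT replicate 2 the difference turned to slightly positive for Ctsz (0.91 percentage points), Lamp1 (0.10) and Cd63 (0.51).

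**Figure D4:**
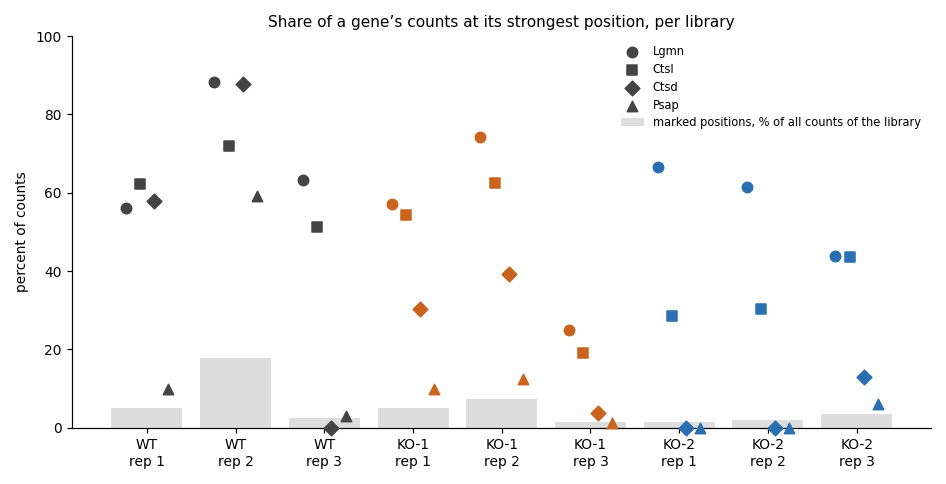
Percent of the counts of Lgmn, Ctsl, Ctsd and Psap at their strongest position (points) and of all counts of the library at marked positions (grey bars, from 0), for the 9 libraries. WT replicate 2 has the highest bar (17.8%) and the highest point of each gene, and points at 0 are libraries of Ctsd or Psap without a count there.

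At single positions, 5 positions of 4 members had enough counts to be tested (at least 10 counts in at least 3 libraries), namely those of Ctsl, Lgmn, Psap and Ctsd listed above. None passed by count, where 0.0478% of 2092 positions passed in each comparison with WT and 0% between the clones. None passed relative to the rest of its gene, where 0% of 2051 positions passed (edgeR). Without adjustment, 1 of the 5 had a p under 0.05 by count for the average of both clones, and 4 did so relative to the rest of the gene, all lower, beside 197 and 358 positions of the whole table. Relative to its gene and for the average of both clones, the Ctsd position had a log2 fold change of -4.16 ± 1.24 (SE, adjusted p = 0.266), that of Psap one of -3.36 ± 1.13 (SE, adjusted p = 0.266), and the strongest of Ctsl one of -1.23 ± 0.52 (SE, adjusted p = 0.278, edgeR). The other positions of the 8 genes had too few counts to be tested.

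Per kilobase of transcript and without marked positions, the highest WT levels were those of Cd63, at 87.2 ± 2.05 CPM per kilobase (SD, n = 3), Lamp1, at 81.2 ± 12.9, and Ctsl, at 77.6 ± 16.3. The lowest were those of Lgmn, at 15.4 ± 5.94, and Ctsb, at 15.6 ± 4.07. Ctsb was divided by all 4743 nucleotides of Ctsb-201. With these cut into 3 equal stretches, the 5′ stretch held 71.1% of its exonic unmarked WT counts and the 3′ stretch 6.67%. The low level of Ctsb thus depends on the transcript length used. The 3′ stretch of Ctsl held 5.67% of its exonic unmarked WT counts, so the place of Ctsl in the WT order depends on it as well. In Snord67KO-2, Ctsl came first at 319 ± 46.1 CPM per kilobase (SD, n = 3), followed by Cd63 at 87.3 ± 5.62 and Lamp1 at 76.2 ± 16.9, which overlapped each other. In Snord67KO-1 the order was Ctsl at 330 ± 56.5, Cd63 at 141 ± 33.3 and Lamp1 at 115 ± 9.62.

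Other genes of the lysosome were taken from lists of known members. Of 36 acid hydrolases, 17 had enough counts to be tested with all positions. For Snord67KO-1 against WT 5 of the 17 were higher and 0 lower, and for Snord67KO-2 0 passed in either direction (edgeR). Of all genes, 10.1% were higher and 8.2% lower in Snord67KO-1, and 2.43% higher and 0.747% lower in Snord67KO-2. The 5 were Manba (log2 1.44 ± 0.31, SE, adjusted p = 0.0046), Ctsh (1.37 ± 0.31, adjusted p = 0.00579), Man2b1 (1.51 ± 0.41, adjusted p = 0.0165), Asah1 (0.70 ± 0.22, adjusted p = 0.0369) and Gaa (1.07 ± 0.36, adjusted p = 0.0453), which encode β-mannosidase, cathepsin H, α-mannosidase, acid ceramidase and acid α-glucosidase. The median of the 17 was 0.56 in Snord67KO-1 and 0.04 in Snord67KO-2. Without marked positions 15 were tested, 5 were higher in Snord67KO-1, with Ppt1 in place of Gaa, and 0 passed in Snord67KO-2. Of all genes, 11.6% were then higher in Snord67KO-1 and 3.06% in Snord67KO-2.

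Of 17 membrane and activator proteins, 11 were tested, and 2 were higher in Snord67KO-1, a share not far from the 10.1% of all genes. These were Npc2, the lysosomal cholesterol carrier (log2 1.49 ± 0.23, SE, adjusted p = 0.000444), and the sialomucin Cd164 (1.29 ± 0.23, adjusted p = 0.000983, edgeR). Without marked positions Lamp2, the closest relative of Lamp1, was higher too (0.81 ± 0.21, adjusted p = 0.00998, edgeR). None of the 11 passed in Snord67KO-2, and their median there was -0.06 with all positions, against 0.34 in Snord67KO-1.

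Of 7 listed protease inhibitors, which were cystatins, stefins and the serpin gene Serpinb6a, only 3 had enough counts. In Snord67KO-1 these 3 were higher with all positions, namely Cst3 or cystatin C (log2 1.55 ± 0.34, SE, adjusted p = 0.00509), Serpinb6a (0.99 ± 0.22, adjusted p = 0.00564) and Cstb or stefin B (0.85 ± 0.27, adjusted p = 0.0394, edgeR). Of all genes, 10.1% were higher in Snord67KO-1 and 2.43% in Snord67KO-2. In Snord67KO-2 0 of the 3 passed, with a median of 0.89. Without marked positions 2 of the 3 passed in Snord67KO-1, and Cstb did not (adjusted p = 0.07).

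Of the tetraspanins related to Cd63, 6 of 12 were tested. With all positions 2 were higher in Snord67KO-1 and 1 in Snord67KO-2, where 10.1% and 2.43% of all genes were. Cd9 was higher in both clones, by 1.64 ± 0.23 (SE, adjusted p = 0.000208) in Snord67KO-1 and by 2.23 ± 0.24 (SE, adjusted p = 4.5e-05, edgeR) in Snord67KO-2 on the log2 scale, and remained so without marked positions (1.58 and 2.12). Tspan3 was higher in Snord67KO-1 (0.75 ± 0.26, SE, adjusted p = 0.0495, edgeR), and without marked positions Cd151 was too (1.16 ± 0.36, SE, adjusted p = 0.027, edgeR). Among 11 sorting genes, 8 were tested and 1 was higher in Snord67KO-1, a share near the 10.1% of all genes. This was Sorl1, a sorting receptor of the trans-Golgi network (1.26 ± 0.37, SE, adjusted p = 0.0266, edgeR). Without marked positions Igf2r, the receptor that carries mannose 6-phosphate tagged hydrolases, was higher as well (0.83 ± 0.19, SE, adjusted p = 0.00465, edgeR). That made 2 of 7 tested sorting genes, beside 11.6% of all genes. Of 15 subunits and partners of the proton pump, 12 were tested and 0 passed with all positions in either clone. Without marked positions Atp6v1h was lower in Snord67KO-1 (-1.12 ± 0.35, SE, adjusted p = 0.0292, edgeR), where 8.74% of all genes were. Of the 4 transcription factors of the Tfeb family, 2 were tested, and Mitf, named after its value was seen, was higher in Snord67KO-1 (0.94 ± 0.29, SE, adjusted p = 0.0312, edgeR).

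Markers of the labelled cell type were present. Krt8, Krt18, Krt19, Krt7, Epcam and Cdh1 had counts in all 9 libraries, and Cldn7, the seventh epithelial marker, in 5. Summed epithelial markers were 355 to 632 CPM in WT, 929 to 1015 CPM in Snord67KO-1 and 692 to 834 CPM in Snord67KO-2, so that both clones lay above WT. The sums were mostly Krt18 and Krt8, with Krt8 at 1.85 ± 0.25 (SE, adjusted p = 0.000172) and 1.44 ± 0.27 (SE, adjusted p = 0.00661, edgeR) on the log2 scale, while Cdh1 was lower in Snord67KO-1 (-1.07 ± 0.24, SE, adjusted p = 0.0052). Mean CPM of Epcam (30.2 in WT, 16.1 in Snord67KO-1), Krt7 (79.8 and 63.8) and Cldn7 (4.99 and 0) were also below WT there. Macrophages are rich in lysosomal proteases, and the sum of 9 macrophage markers was 3.13 to 6.78 CPM in WT, 14.2 to 56.4 CPM in Snord67KO-1 and 0 to 18.9 CPM in Snord67KO-2. None of the 9 had enough counts to be tested, and Lyz2 and Tyrobp had 1 count each over the 9 libraries. The 7 fibroblast markers summed to 1.57 to 8.14 CPM in WT, 11.6 to 26.7 CPM in Snord67KO-1 and 0 to 2.71 CPM in Snord67KO-2, with Thy1 and Lum at 0. The part of these markers in the gene totals was not tested.

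The genes whose log2 CPM followed the mean of the 8 genes most closely over the 9 libraries, without marked positions, were Gstp1 (Pearson r = 0.97), Hsp90ab1 (0.96), Calm2 (0.95), Slc22a23 (0.95) and Pls3 (0.95), the highest of 5744 genes compared. With all positions they were H2-K1 (0.95), Dazap2 (0.94), Idh1 (0.94), Fmnl2 (0.93) and Uhrf1 (0.93). The points share genotype and library, so these values are descriptions. Among the members, and without marked positions, Ctsb went with Psap (r = 0.89) and Ctsl with Ctsz (0.87), while Lgmn was negative with each other member, from -0.04 with Ctsd to -0.74 with Ctsz.

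The E-box letters CACGTG, the same on both strands and the centre of the element that Tfeb binds, were found in 4 of 9 listed promoters of the members, those of Ctsd, Lamp1, Ctsl and 1 of the pair of Lgmn, beside 7.15% of 32851 promoters (RefSeq, GRCm38.p6, 300 bases around the start site). Entries were found for 7 of the 8 genes, without Ctsb. This is a match of letters and shows no binding.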

How the data were processed

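RNA of 4T1-mCh/rLuc WT, Snord67KO-1 and Snord67KO-2 cells was poly(A) selected, and oxidized libraries were sequenced by the authors. The authors trimmed reads with cutadapt, merged pairs with PEAR, removed the linker, mapped the reads (the submitters' processing notes name STAR and mm10) and deposited counts of read 3′ ends per position, raw and not normalized. The handling of duplicates and of reads with several locations, and the rule for marking mispriming, are not given in the sources used here. Libraries had 212463 to 737219 counts, and the sources do not say whether the random bases in the adapters were used to count molecules, so limits from a count of 0 cover counting error only. The 95% intervals of fold changes come from the fits and hold the spread between libraries. GENCODE M21 (GRCm38) was used for annotation: 98.5% of the positions with a gene name found there lay within that gene.

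Counts were summed per gene and tested with edgeR 4.0.16 (quasi-likelihood, TMM, R 4.3.3) over all genes that reached 10 counts in 3 or more libraries, with Benjamini-Hochberg adjustment at 0.05. Comparisons were the average of both clones, each clone against WT, and clone against clone. Positions were tested by count and relative to the rest of their gene (at least 50 other counts). Marked shares were compared by exact permutation (scipy 1.17.1). The scripts were tested on simulated data. Alternatives were library totals without TMM, DESeq2 1.42.0, other filters, removal of marked or strongest positions, a replicate block and each library left out. Those chosen after seeing the data were the removal of marked positions together with another change. Genes named are the 8 members with their strongest positions (up to 3 each), up to 5 other lysosomal genes past the threshold with the smallest p in a comparison, up to 3 past it of the inhibitor, sorting, proton pump and tetraspanin lists, the 5 genes most correlated with the members' mean, and cell type markers. Members and lists were chosen with earlier results of these data known. Labels do not say whether replicates came from separate cultures, so p-values measure the spread between these samples, which may be technical.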

Additional observations from a re-analysis of the deposited data

Results flagged for a closer look

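None of the 8 genes differed between the clones by the test of the difference itself, but 5 genes of the lists used beside them did (edgeR, Snord67KO-2 minus Snord67KO-1 on the log2 scale). Of the epithelial markers, Epcam differed by 2.28 with all positions and 2.23 without marked ones, Krt7 by 1.03 and 0.92, and Cdh1 by 1.04 and 0.98, all higher in Snord67KO-2. The sorting receptor gene Sorl1 was lower in Snord67KO-2, at -2.72 and -2.71. Cd164 was lower in Snord67KO-2 without marked positions, at -0.76 (adjusted p = 0.0408). Each knockout line is 1 single-cell clone, so differences between clones and between their deletions cannot be told apart.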

How the results depend on the processing

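The higher Ctsl without marked positions passed in each comparison with WT in every fit with a library left out. For the average of both clones 4 members passed, while 6 passed with strongest positions left out (Ctsd and Psap in addition). Strongest positions were picked from these same counts. Library totals alone gave 2 (Ctsb and Lgmn), and DESeq2 without marked positions gave 2 (Ctsb and Ctsl). Over all genes 759 of 6295 passed for this average, and 949 of 5771 with strongest positions left out. Library totals gave 321 of 6295 and DESeq2 without marked positions 313 of 5752. For Snord67KO-2 2 passed, where 200 of 6295 genes did. Strongest positions left out gave 3 (Ctsb, Ctsd and Ctsl), where 386 of 5771 genes passed. Leaving out marked positions gave 1, where 229 of 5752 genes passed. Library totals alone gave 0, beside 32 of 6295 genes, and DESeq2 without marked positions gave 1, beside 110 of 5752.

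The signs of Ctsd turned most. With the strongest position of every gene left out, Ctsd came to 1.11 (average) and 1.09 (Snord67KO-2). In Snord67KO-1 it came to -0.062 without marked positions, -0.022 with no filter and -0.046 in DESeq2 without marked positions. Library totals alone gave -0.24 for Psap and -0.12 for Cd63 in Snord67KO-2, and -0.21 for Ctsz between the clones, and no filter gave -0.086 for Psap in Snord67KO-2. Between the clones Ctsl came to 0.29 without marked positions, 0.18 without strongest positions and 0.27 in DESeq2 without marked positions. The cause of these turns was not tested.

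Library totals alone moved the median of all genes to -0.27 in Snord67KO-2 against WT (-0.03 with TMM), and the share of higher calls from 55.1% to 79.9% in Snord67KO-1, from 76.5% to 93.8% in Snord67KO-2 and from 45.0% to 12.7% between the clones. With no filter that share was 35.3% in Snord67KO-2. Calls over all genes were 321, 687 and 32 by library totals in the 3 comparisons with WT, and 389, 575 and 146 in DESeq2, with 108 between the clones. Leaving out 1 library gave 436 to 755, 432 to 1084, 53 to 307 and, between the clones, 53 to 465, in place of 759, 1149, 200 and 251.

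Replicate numbers gave no clear pairing over all libraries. Correlations were -0.161 to 0.351 within a number and -0.404 to 0.201 across numbers. Between WT and Snord67KO-1 they were -0.078 for replicate 1, 0.351 for replicate 2 and 0.302 for replicate 3. Whether these lines are paired by number thus cannot be told. With a replicate block, calls over all genes were 871, 1266, 279 and 274. Ctsd turned to 0.029 for the average, the second Ctsl position to 0.30 by count, and Ctsl between the clones to 0.30 without marked positions. Without marked positions 1 member passed in Snord67KO-2 with this block, where 262 of 5752 genes did.

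With each library left out in turn (with all or without marked positions), 2 to 4 members passed for the average, 2 to 4 for Snord67KO-1 and 0 to 2 for Snord67KO-2, and these log2 values changed sign. Against WT, Ctsd ran from -0.66 to 0.19 for the average, from -0.50 to 0.35 for Snord67KO-1 and from -0.82 to 0.025 for Snord67KO-2. For Snord67KO-2, Psap ran from -0.031 to 0.65, Lamp1 from -0.059 to 0.44 and Cd63 from -0.0035 to 0.26. Between the clones, Ctsl ran from -0.34 to 0.39 and Ctsz from -0.034 to 0.24. By count, the second Ctsl position ran from -0.62 to 1.405 for the average, from -0.0083 to 2.18 for Snord67KO-1 and from -1.84 to 0.63 for Snord67KO-2, the first from -0.20 to 0.78 for Snord67KO-2, the Psap position from -4.22 to 0.22 for the average and from -1.63 to 1.31 for Snord67KO-1, and the Ctsd position from -1.54 to 0.0030 for Snord67KO-1. Relative to the gene, the second Ctsl position ran from -1.42 to 0.14 and that of Psap from -3.14 to 0.22 for Snord67KO-1, and that of Lgmn from -0.82 to 0.44 between the clones. Differences in marked share ran from -10.4 to 0.91 points for Ctsz, from -2.86 to 0.10 for Lamp1 and from -18.5 to 0.51 for Cd63.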
